A study of Homo sapiens with 14 samples.

Results

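The Nuclear factor I family, the transcription factors NFIA, NFIB, NFIC and NFIX, was followed in LY2 cells through every probe set of the HG-U133 Plus 2.0 array that the annotation assigns to 1 of these 4 genes alone. This gave 24 of the 54613 probe sets tested: 7 for NFIA, 9 for NFIB, 4 for NFIC and 4 for NFIX, and 0 probe sets listed a member together with another gene. The 4 genes were among 19775 with a probe set of their own. The family was selected on the measured knockdown differences of NFIA, whose probe sets differed in how far they fell in SRC1-siRNA cells of both treatments. Values for the knockdown are therefore a description, and only the tamoxifen comparisons and the interaction are tests. These share arrays with the knockdown comparisons, and the interaction equals the knockdown difference with tamoxifen minus that without. They are thus not independent of how the family was selected. LY2 is a tamoxifen-resistant line derived from MCF-7 breast cancer cells, taken here as the single line of all arrays. Sample titles, source names and the cell line tag all name LY2, while the free-text descriptions run through further LY numbers in sequence. Cultures were kept in medium with stripped serum and 10 nM 4-hydroxytamoxifen, and all groups then spent 72 hours without the drug. All groups also received an siRNA at 40 nM, either against SRC-1, the nuclear receptor coactivator encoded by NCOA1, or a scrambled control, for 24 hours. The last step was 100 nM 4-hydroxytamoxifen, the active metabolite of tamoxifen, or ethanol as vehicle, for 2 hours. The groups were SRC1 siRNA with tamoxifen (2 arrays, replicates 1 and 3), SRC1 siRNA untreated (4 arrays), control siRNA with tamoxifen (4 arrays) and control siRNA untreated (4 arrays). The question was which genes depend on SRC-1 in endocrine-resistant cells. Values are the deposited log2 signals, so a difference of 1 is a 2-fold change in signal.

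Nuclear factor I proteins bind DNA as dimers through a conserved domain at their amino end, at a palindrome whose arms read TTGGC, and can activate or repress the genes they bind. They were found as host factors for the replication of adenovirus DNA. In mice, NFIA and NFIB drive the formation of glial cells and NFIB the maturation of the lung, NFIC the growth of tooth roots, and NFIX the switch of muscle to its fetal programme. In the mammary gland NFI sites lie in milk protein genes, and in breast cancer cells NFIB has been described as a partner of the estrogen receptor and FOXA1.

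The sequence before the outermost RefSeq start of each gene is shown because the family's own binding letters can be looked for there. The RefSeq table (GRCh38.p14) gave 3 start windows for NFIA, 10 for NFIB, 1 for NFIC and 5 for NFIX. The 250 bases before the start that forms the gene's 5′ end are chr1:61076977-61077226 on the plus strand for NFIA, chr9:14532078-14532327 on the minus strand for NFIB, chr19:3359380-3359629 on the plus strand for NFIC and chr19:12995225-12995474 on the plus strand for NFIX. Capitals mark the half-site TTGGC.
NFIA: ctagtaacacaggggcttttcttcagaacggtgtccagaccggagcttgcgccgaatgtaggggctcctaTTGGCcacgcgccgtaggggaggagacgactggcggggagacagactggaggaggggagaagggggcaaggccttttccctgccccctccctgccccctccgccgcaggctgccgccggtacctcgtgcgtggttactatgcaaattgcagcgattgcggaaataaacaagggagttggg
NFIB: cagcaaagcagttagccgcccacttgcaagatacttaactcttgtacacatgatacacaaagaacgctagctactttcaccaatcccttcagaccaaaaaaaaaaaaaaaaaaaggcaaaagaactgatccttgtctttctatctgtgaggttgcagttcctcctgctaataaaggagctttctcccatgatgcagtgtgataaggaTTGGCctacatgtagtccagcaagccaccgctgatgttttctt
NFIC: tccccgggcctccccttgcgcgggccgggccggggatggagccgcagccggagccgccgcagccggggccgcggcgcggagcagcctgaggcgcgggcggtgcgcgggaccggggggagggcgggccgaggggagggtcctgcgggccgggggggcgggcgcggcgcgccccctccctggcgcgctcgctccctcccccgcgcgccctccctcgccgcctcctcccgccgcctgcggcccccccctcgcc
NFIX: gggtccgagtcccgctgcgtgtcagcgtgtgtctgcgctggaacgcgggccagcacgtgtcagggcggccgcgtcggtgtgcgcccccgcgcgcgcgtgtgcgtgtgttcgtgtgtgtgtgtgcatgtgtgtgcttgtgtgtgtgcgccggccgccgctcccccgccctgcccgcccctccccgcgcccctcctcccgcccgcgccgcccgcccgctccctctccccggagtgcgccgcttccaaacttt
The half-site stands 180 bases before the NFIA start and 43 bases before the NFIB start, and is not in the NFIC and NFIX windows shown. The NFIB window had 42% G and C and 3 CpG pairs, against 62% and 17 for NFIA, 87.2% and 41 for NFIC and 74.8% and 37 for NFIX. Over all start windows, read on both strands, TTGGC was in 1 of 3 NFIA, 6 of 10 NFIB, 0 of 1 NFIC and 2 of 5 NFIX windows, some of which overlap each other. It was in 40.8% of the 35116 windows of all genes, so its presence is common. The full palindrome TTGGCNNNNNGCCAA (0.0285% of all windows), the estrogen response element GGTCANNNTGACC (0.0399%) and the AP-1 site TGACTCA (4.2%) were in 0 of the windows of the 4 genes.

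The level of the siRNA target was examined first. The mean of the 4 NCOA1 probe sets stood at 8.01, 7.53, 7.27 and 7.98 in untreated SRC1-siRNA cells for replicates 1 to 4, against 8.81, 9.14, 9.27 and 8.77 in untreated control-siRNA cells. With tamoxifen it was at 7.91 and 7.56 in SRC1-siRNA cells (replicates 1 and 3), against 8.86, 8.98, 9.27 and 9.13 in control-siRNA cells. Every SRC1-siRNA array lay below every control-siRNA array, with differences from -2.0 to -0.79 between arrays of the same number. Array medians ran from 3.44 to 3.51. The 8 luminal epithelial markers fixed for this report (ESR1, KRT8, KRT18, KRT19, EPCAM, CDH1, GATA3 and FOXA1) were bright in all groups, with list means of 12.3 to 12.4 on the log2 scale. Of these markers KRT8 rose by 0.31 and CDH1 fell by 0.27 in untreated SRC1-siRNA cells (limma adjusted p = 0.0351 and 0.00864). Markers of other cell types were dim. List means ran from 2.56 to 2.76 and 2.57 to 2.73 for 4 immune markers in SRC1-siRNA cells with and without tamoxifen, against 2.47 to 2.57 and 2.47 to 2.59 in control-siRNA cells. Those of 4 endothelial markers ran from 2.43 to 2.84 over all arrays. Of 5 fibroblast markers only COL1A1 exceeded the median signal of all probe sets (3.47), at 10.9, and 0 of the 5 passed in any comparison. Of the endothelial markers, PECAM1 differed by 0.73 in untreated cells and CDH5 by -0.36 in tamoxifen-treated cells between the siRNAs (limma adjusted p = 0.0255 and 0.00273), both below the median signal. CDH5 also fell by 0.36 with tamoxifen in SRC1-siRNA cells (limma adjusted p = 0.014). The part of other cell types in the results below was not tested.

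NFIA was lower in SRC1-siRNA cells, by an amount that depended on the probe set. Its 226806_s_at probe set, where the suffix marks probes that match several transcripts, differed most. It was at 7.01, 6.66, 6.92 and 7.74 in untreated SRC1-siRNA cells for replicates 1 to 4, against 8.73, 8.82, 8.42 and 8.43 in untreated control-siRNA cells. All SRC1-siRNA arrays were below all control arrays, with replicate 4 the highest of the 4. The difference of means was -1.52 ± 0.18 (standard error of the fit), a signal 65.0% lower. With tamoxifen the probe set was at 6.75 and 6.89 in SRC1-siRNA cells, against 8.55, 8.65, 8.67 and 8.38 in control-siRNA cells, again without overlap. That difference was -1.74 ± 0.22, a signal 70.1% lower. In RNA of whole cultures, fewer cells that express a gene and less of its RNA per cell cannot be told apart.

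The brightest NFIA probe set, 224975_at, differed by less than 226806_s_at. It was at 8.66, 8.60, 8.86 and 9.0 in untreated SRC1-siRNA cells, against 9.35, 9.26, 9.38 and 9.38 in untreated control-siRNA cells. The groups did not overlap, and the difference was -0.56 ± 0.09 (32.2% lower). Values of 8.56 and 8.33 with tamoxifen in SRC1-siRNA cells stood against 9.21, 9.43, 9.17 and 9.17 in control-siRNA cells, a difference of -0.80 ± 0.11 (42.5% lower). Ordered by mean from the lowest, SRC1-siRNA cells with tamoxifen (8.45 ± 0.16, SD, n = 2) were followed by untreated SRC1-siRNA cells (8.78 ± 0.19, n = 4), control cells with tamoxifen (9.24 ± 0.13, n = 4) and untreated control cells (9.34 ± 0.06, n = 4). Only the 2 control groups overlapped among neighbours in this order.

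Another NFIA probe set, 224970_at, gave a near-equal difference in both treatments. Untreated SRC1-siRNA cells had 7.83, 7.76, 7.86 and 8.00, against 8.48, 8.37, 8.72 and 8.70 in untreated control-siRNA cells. Tamoxifen-treated SRC1-siRNA cells had 7.72 and 7.74, against 8.46, 8.55, 8.19 and 8.31 in control-siRNA cells. The groups were separate in both, at -0.71 ± 0.09 (38.8% lower) without and -0.65 ± 0.11 (36.2% lower) with tamoxifen.

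Probe set 224976_at was lower as well, but 1 array broke the separation. It was at 5.42, 5.43, 5.65 and 6.04 in untreated SRC1-siRNA cells, against 6.43, 6.25, 6.21 and 6.01 in untreated control-siRNA cells. Replicate 4 of the SRC1-siRNA group lay just above replicate 4 of the control group, and the difference of means was -0.59 ± 0.12. Without all arrays of replicate number 4 it was -0.79. With tamoxifen it was at 5.47 and 5.52 in SRC1-siRNA cells, against 5.92, 6.01, 5.83 and 6.07 in control-siRNA cells, without overlap (-0.46 ± 0.15).

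The 3 dim NFIA probe sets overlapped between the untreated groups. The 229994_at values were 3.66, 3.37, 3.37 and 3.27 in untreated SRC1-siRNA cells, against 3.43, 3.63, 4.12 and 4.68 in untreated control-siRNA cells, where they spread over more than 1 log2 unit. With tamoxifen they were 3.36 and 3.17 in SRC1-siRNA cells, against 3.92, 4.03, 3.83 and 3.37 in control-siRNA cells. The differences were -0.55 ± 0.22, with overlapping groups, and -0.52 ± 0.27, with groups that missed overlap by a narrow margin. Without control-siRNA untreated replicate 4 the untreated difference was -0.31.
Probe set 1558101_at was at 2.75, 2.58, 2.81 and 3.22 in untreated SRC1-siRNA cells, against 3.12, 3.32, 2.96 and 3.13 in untreated control-siRNA cells. With tamoxifen it was at 3.04 and 3.18 in SRC1-siRNA cells, against 3.04, 2.86, 3.0 and 2.89 in control-siRNA cells. Its differences had opposite signs, -0.29 ± 0.11 without and 0.16 ± 0.14 with tamoxifen, and the groups overlapped in both.
Probe set 1557639_at was at 2.46, 2.99, 2.70 and 2.70 in untreated SRC1-siRNA cells, against 2.84, 2.94, 2.84 and 2.97 in untreated control-siRNA cells. With tamoxifen it was at 2.55 and 2.68 in SRC1-siRNA cells, against 3.03, 2.43, 2.68 and 2.69 in control-siRNA cells. The groups overlapped in both, with differences of -0.18 ± 0.12 and -0.09 ± 0.15. Both of these probe sets lie below the median signal of 3.47.

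**Figure D1:**
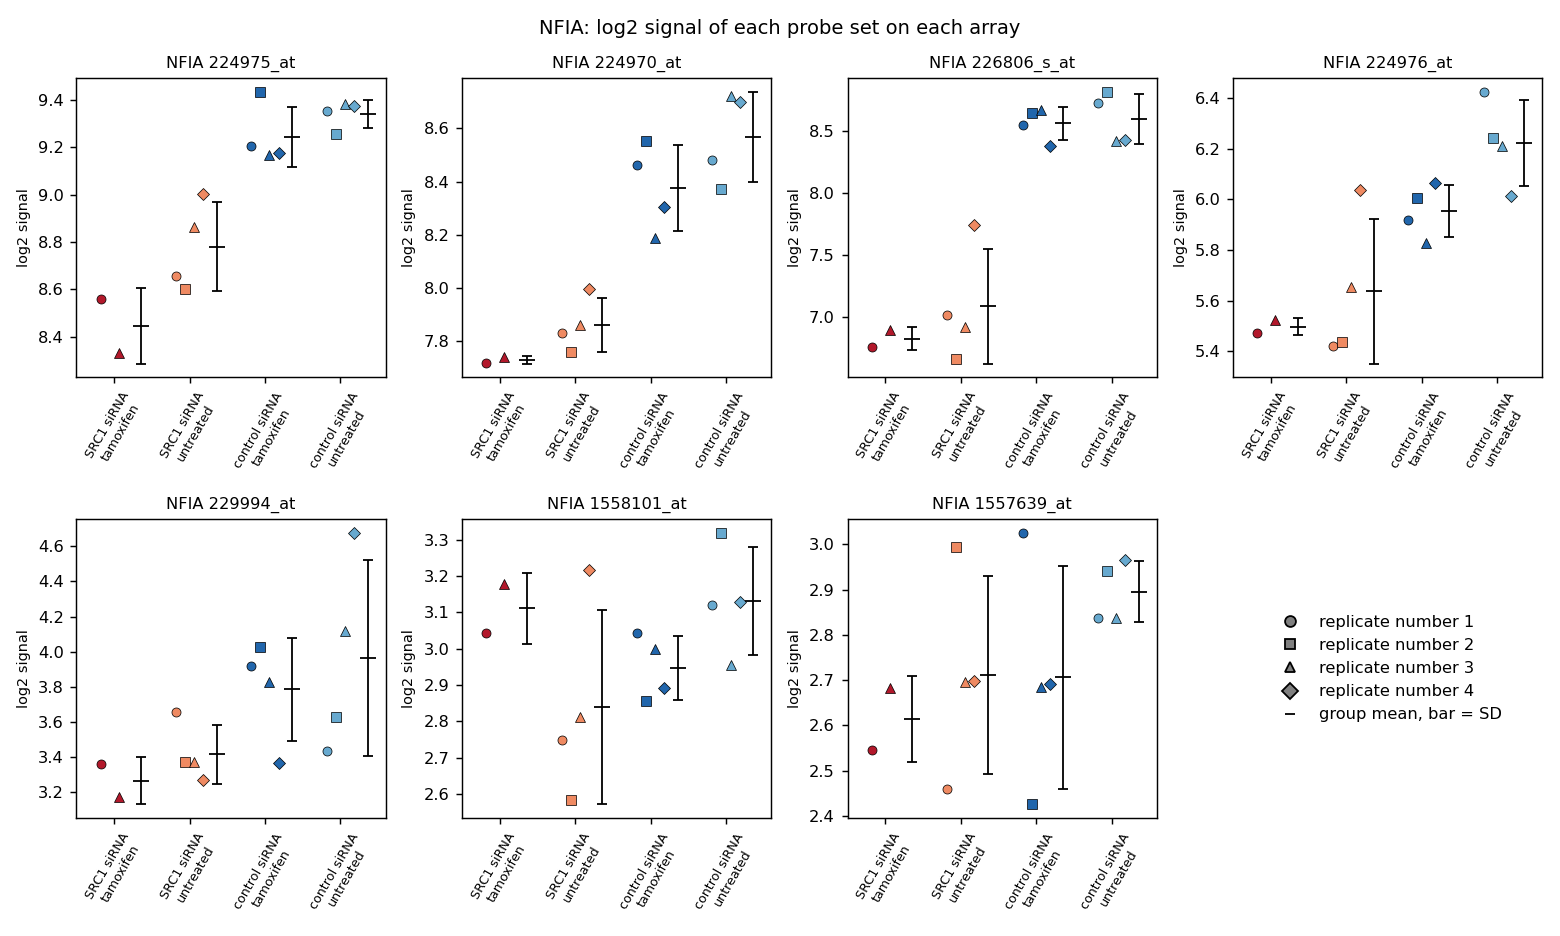
Log2 signal of the 7 NFIA probe sets on each of the 14 arrays, by group, with the marker giving the replicate number and the bar the group mean and SD. In the 3 brightest probe sets every SRC1-siRNA array lies below every control-siRNA array of the same treatment, and 226806_s_at shows the widest gap. Of all probe sets, 8.31% were lower without overlap in untreated cells and 21.1% with tamoxifen.

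Taken by replicate number, the NFIA differences were not equally large. Between untreated arrays of the same number, 226806_s_at differed by -1.72, -2.16, -1.5 and -0.69 for replicates 1 to 4, and 224976_at by -1.0, -0.81, -0.56 and 0.02. Both were smallest in replicate 4. The differences of 224970_at, by contrast, were -0.65, -0.62, -0.86 and -0.70. NCOA1 itself differed by -0.80, -1.60, -2.0 and -0.79, so that replicate 1 had a small NCOA1 difference beside a large one of 226806_s_at. With tamoxifen, replicates 1 and 3 gave -1.79 and -1.78 for 226806_s_at, beside -0.94 and -1.70 for NCOA1. The labels do not say that a number marks a shared culture. Over all probe sets, deviations of same-numbered arrays had negative correlations (median -0.334), so these differences cannot be read as those of matched arrays.

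**Figure D2:**
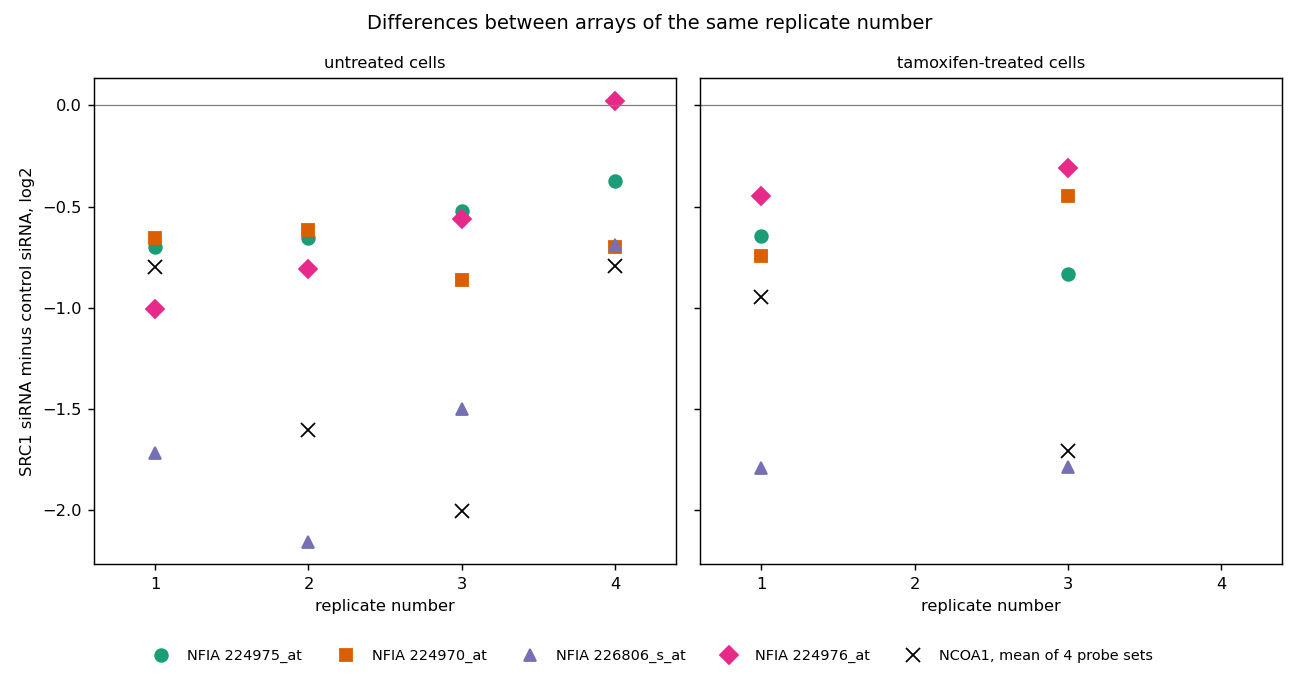
Difference between SRC1-siRNA and control-siRNA arrays of the same replicate number, log2, for the 4 brightest NFIA probe sets and for the mean of the 4 NCOA1 probe sets. In untreated cells 226806_s_at runs from -2.16 to -0.69, while 224970_at stays between -0.86 and -0.62.

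NFIB was lower in SRC1-siRNA cells in its 5 bright probe sets (means from 9.05 to 11.57), by less than the 226806_s_at probe set of NFIA. The brightest, 213032_at, was at 11.35, 11.31, 11.35 and 11.49 in untreated SRC1-siRNA cells, against 11.83, 11.71, 11.74 and 11.80 in untreated control-siRNA cells. With tamoxifen it was at 11.32 and 11.33 in SRC1-siRNA cells, against 11.66, 11.75, 11.69 and 11.61 in control-siRNA cells. The groups did not overlap in either treatment. The differences were -0.40 ± 0.05 (24.0% lower) and -0.36 ± 0.06 (21.8% lower), and at each replicate number the untreated difference lay between -0.48 and -0.32. From the lowest mean, SRC1-siRNA cells with tamoxifen (11.32 ± 0.0047, SD, n = 2) were followed by untreated SRC1-siRNA cells (11.37 ± 0.08, n = 4), control cells with tamoxifen (11.68 ± 0.06, n = 4) and untreated control cells (11.77 ± 0.06, n = 4). The gap lay between both SRC1-siRNA groups and both control groups, while groups that shared an siRNA overlapped.

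The other 4 bright NFIB probe sets went the same way. In untreated cells 213033_s_at differed by -0.53 ± 0.05 (30.8% lower), 209289_at by -0.48 ± 0.06, 213029_at by -0.38 ± 0.07 and 209290_s_at by -0.26 ± 0.06. With tamoxifen they differed by -0.60 ± 0.07, -0.44 ± 0.07, -0.22 ± 0.09 and -0.28 ± 0.07 in the same order. All 5 bright probe sets had separate groups in both comparisons. Over all probe sets, 8.31% were lower without overlap in untreated cells and 21.1% with tamoxifen.
The remaining 4 NFIB probe sets were dim, with means from 2.19 to 4.21. In untreated cells 233304_at was at 1.93 to 2.21 in SRC1-siRNA cells, against 2.29 to 2.37 in control-siRNA cells, a separation close to the array floor. With tamoxifen 211466_at was higher in SRC1-siRNA cells, at 4.37 and 4.54, against 4.06, 4.27, 3.81 and 4.10 in control-siRNA cells (0.39 ± 0.16), whereas without tamoxifen its difference was -0.25 ± 0.13 with overlapping groups. The differences of 211467_s_at and 233394_at lay between -0.10 and 0.05.

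NFIC differences were above 0 in 3 of its 4 probe sets in each treatment, but not in the same 3. Probe set 226377_at was below 0 without tamoxifen and 213298_at with it. The brightest NFIC probe set, 226377_at, was at 10.78, 10.77, 10.89 and 10.72 in untreated SRC1-siRNA cells, against 10.69, 10.87, 10.82 and 10.98 in untreated control-siRNA cells. The groups overlapped, with a difference of -0.05 ± 0.08 and a 95% interval from -0.22 to 0.12. With tamoxifen it was at 11.00 and 10.91 in SRC1-siRNA cells, against 10.77, 10.80, 10.63 and 10.49 in control-siRNA cells, separate and 0.28 ± 0.10 higher. Of the dimmer probe sets, 206929_s_at was at 5.77 to 6.0 in untreated SRC1-siRNA cells, against 5.57 to 5.68 in untreated control-siRNA cells (0.32 ± 0.08), but at 0.08 ± 0.09 with tamoxifen. The differences of 226895_at (0.06 ± 0.10 and 0.18 ± 0.12) and 213298_at (0.20 ± 0.07 and -0.02 ± 0.09) came with overlapping groups. From the highest mean, the order of 226377_at was SRC1-siRNA cells with tamoxifen (10.95 ± 0.07, SD, n = 2), untreated control cells (10.84 ± 0.12, n = 4), untreated SRC1-siRNA cells (10.79 ± 0.07, n = 4) and control cells with tamoxifen (10.67 ± 0.14, n = 4), each overlapping with the next.

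NFIX differences also lay above 0 in 3 of 4 probe sets in each treatment, but not in the same 3. Probe set 227400_at was below 0 without tamoxifen and 209807_s_at with it. The 227400_at probe set was at 8.51, 8.57, 8.40 and 8.38 in untreated SRC1-siRNA cells, against 8.33, 8.66, 8.54 and 8.37 in untreated control-siRNA cells. That difference was -0.01 ± 0.09, with a 95% interval from -0.20 to 0.18. With tamoxifen the values were 8.82 and 8.62 in SRC1-siRNA cells, against 8.28, 8.37, 8.44 and 8.12 in control-siRNA cells. The groups were then separate, and the SRC1-siRNA cells were higher by 0.42 ± 0.11. The next probe set, 228278_at, also gave 4.16 and 4.19 with tamoxifen in SRC1-siRNA cells, against 3.69, 4.03, 3.98 and 3.93 in control-siRNA cells (0.27 ± 0.09), and 0.08 ± 0.08 without tamoxifen. Probe sets 209807_s_at and 229834_at had means of 3.99 and 2.53 and differences between -0.02 and 0.03 in both comparisons. From the highest mean, 227400_at was ordered as SRC1-siRNA cells with tamoxifen (8.72 ± 0.14, SD, n = 2), untreated control cells (8.48 ± 0.15, n = 4), untreated SRC1-siRNA cells (8.47 ± 0.09, n = 4) and control cells with tamoxifen (8.30 ± 0.14, n = 4), and each group overlapped with the next.

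**Figure D3:**
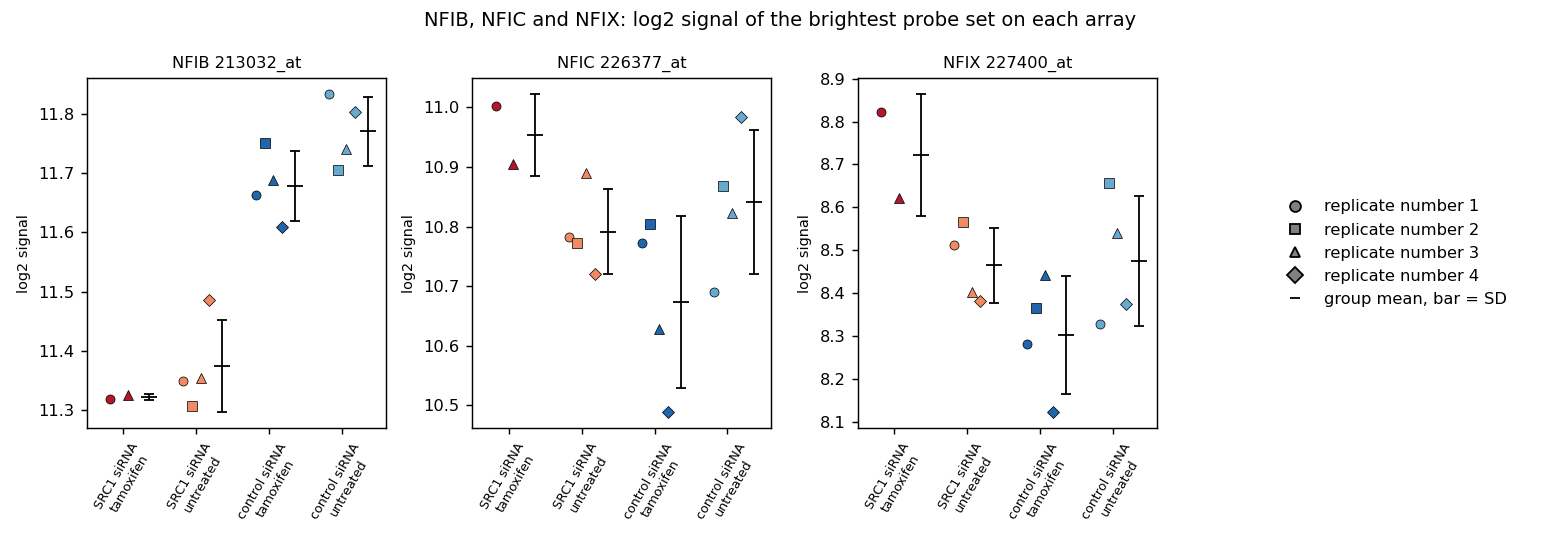
Log2 signal of the brightest NFIB, NFIC and NFIX probe sets on each array, by group, with markers for the replicate number and a bar for the group mean and SD. NFIB 213032_at separates the SRC1-siRNA groups (11.31 to 11.49) from the control-siRNA groups (11.61 to 11.83), while NFIC and NFIX overlap in untreated cells.

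Over the family, 17 of 24 probe sets had a difference below 0 in untreated cells, with a median of -0.26 where the median of all probe sets was 0.00 to 2 decimals. By gene the medians were -0.56 for NFIA, -0.28 for NFIB, 0.13 for NFIC and 0.03 for NFIX. Untreated groups did not overlap for 9 probe sets that were lower and 1 that was higher, beside 8.31% and 7.92% of all probe sets. In the limma fit (adjusted p under 0.05 over all probe sets), 10 NFI probe sets were counted as lower and 1 as higher, beside 5.36% and 4.99% of all probe sets. With tamoxifen the median was -0.10, against -0.02 for all probe sets. Here 10 probe sets were below and 4 above all control arrays of that treatment, beside 21.1% and 14.9% of all probe sets, and the fit counted 7 as lower and 1 as higher, beside 7.70% and 5.76%. That total of 8 was 4 without SRC1-siRNA tamoxifen replicate 1. Since the knockdown chose the family, these counts are no test of it.

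**Figure D4:**
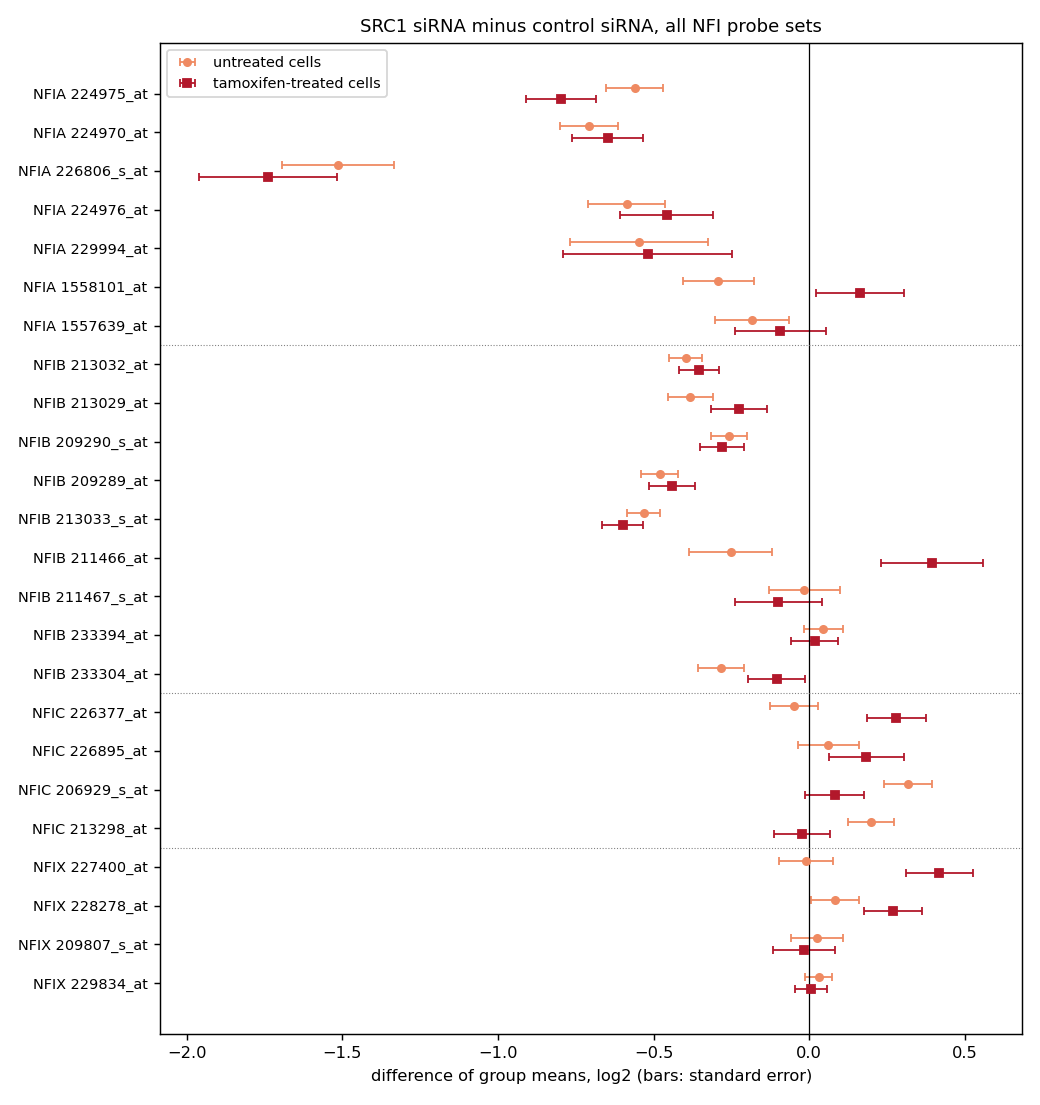
Difference of group means, SRC1 siRNA minus control siRNA, for all 24 NFI probe sets in untreated and tamoxifen-treated cells, log2, with standard errors. The bright NFIA and NFIB probe sets lie left of 0 in both treatments, with 226806_s_at farthest out, and the NFIC and NFIX probe sets lie near or right of 0.

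Exposure to tamoxifen for 2 hours gave no call in the family. In control-siRNA cells, 0 of 24 NFI probe sets passed in limma, with adjusted p from 0.297 to 0.996, beside 0.163% of all probe sets. At an unadjusted p under 0.05 there were 4, beside 15.7% of all probe sets: NFIA 224976_at, NFIB 211466_at and the NFIC probe sets 226377_at and 226895_at. Of the 24 differences 20 were below 0, among them all 7 of NFIA, with a median of -0.12 against 0.01 for all probe sets. For NFIA 226806_s_at the difference was -0.04 (95% interval -0.42 to 0.35), for 224975_at -0.10 (-0.29 to 0.10) and for NFIB 213032_at -0.09 (-0.21 to 0.02). NFIC 226377_at gave -0.17 (-0.34 to -0.00078, limma adjusted p = 0.316) and NFIX 227400_at -0.17 (-0.36 to 0.02, limma adjusted p = 0.361).

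In SRC1-siRNA cells, with 2 treated arrays against 4, again 0 of 24 passed in limma, with adjusted p from 0.148 to 0.956, beside 1.51% of all probe sets. At an unadjusted p under 0.05 there were 4, beside 16.8% of all probe sets. They were NFIA 224975_at at -0.33 (95% interval -0.58 to -0.09), NFIC 206929_s_at at -0.28 (-0.49 to -0.08), NFIC 213298_at at -0.24 (-0.44 to -0.05) and NFIX 227400_at at 0.26 (0.03 to 0.49). NFIB 213032_at differed by -0.05 (-0.19 to 0.09). For NFIA 226806_s_at it was -0.26, with an interval from -0.74 to 0.21.

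**Figure D5:**
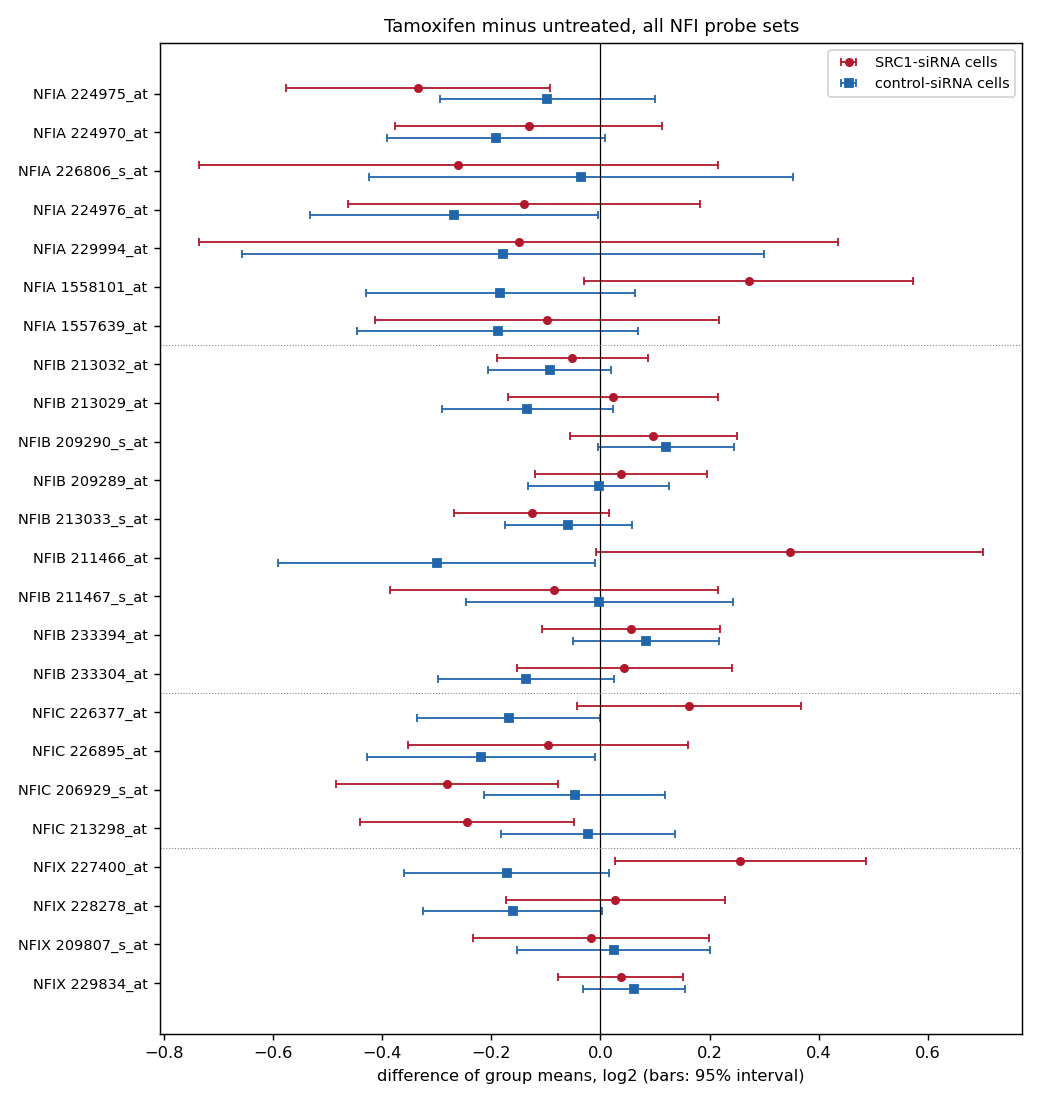
Difference of group means, tamoxifen minus untreated, for all 24 NFI probe sets in SRC1-siRNA and control-siRNA cells, log2, with 95% intervals of the fit. No probe set passed in either comparison after adjustment, and most intervals include 0.

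Whether the tamoxifen difference itself depended on the siRNA was tested as an interaction, the difference in SRC1-siRNA cells minus that in control-siRNA cells. The interaction also equals the knockdown difference with tamoxifen minus that without, so it is not independent of how the family was selected. In limma 0 of 24 NFI probe sets passed (adjusted p from 0.154 to 0.977), beside 0.280% of all probe sets, and 4 had an unadjusted p under 0.05, beside 17.3%. The 4 were NFIB 211466_at (0.65, 95% interval 0.19 to 1.11), NFIA 1558101_at (0.46, 0.07 to 0.84), NFIX 227400_at (0.43, 0.13 to 0.72) and NFIC 226377_at (0.33, 0.07 to 0.59). For NFIA 226806_s_at the interaction was -0.22 (-0.84 to 0.39). Whether the NFIX and NFIC differences between siRNAs in tamoxifen-treated cells depend on tamoxifen is therefore not shown.

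Genes with the most similar profile were sought for the brightest probe set of each member, by Pearson's r over the 14 arrays among 12260 other genes above the median signal. These r values carry differences between the groups as well as between arrays of a group, and are a description. The genes were picked for high r on these arrays, so r with the group means removed, given below, also tends to be high. Spearman's rho ran from 0.771 to 0.965 over the genes named. For NFIA 224975_at they were the potassium channel KCND3 (r = 0.984), the glycosyltransferase GALNT1 (0.976), SEC62 of the protein translocation machinery (0.968), the cytoskeletal SEPTIN11 (0.965) and the phospholipase GPLD1 (0.965). For NFIB 213032_at they were the ribosomal protein gene RPL22 (0.980), the heterochromatin protein gene CBX5 (0.978), SEC62 (0.970), GALNT1 (0.968) and KCND3 (0.967), so that 3 genes stood on both lists. With the group means removed, r ran from 0.748 to 0.906 for the NFIA list and from 0.554 (GALNT1) to 0.894 for the NFIB list. KCND3 differed by -0.84 in untreated and by -1.06 in tamoxifen-treated cells between SRC1 siRNA and control siRNA. GALNT1 was represented by a different probe set on each list.
The nearest profiles to NFIC 226377_at were KIAA0319L (0.926), NCKAP5L (0.920), VPS37C (0.912), SAMD12 (0.901) and ASH1L-AS1 (0.90). Those to NFIX 227400_at were RPL22L1 (0.930), CCDC28A (0.918), BRAP (0.863), DMWD (0.838) and ZNF579 (0.838). With the group means removed, r ran from 0.844 to 0.967 for the NFIC list and from 0.623 to 0.863 for the NFIX list.

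Neighbouring genes were read from the RefSeq order. Beside NFIA, TM2D1 on one side was bright (10.2) and differed by 0.03 ± 0.06 in untreated and 0.01 ± 0.07 in tamoxifen-treated cells, and C1orf87 on the other was at the floor (1.86). Beside NFIB, MPDZ, a scaffold protein of cell junctions, differed by -0.15 ± 0.05 in untreated cells (limma adjusted p = 0.0893) and fell by 0.38 ± 0.07 in SRC1-siRNA cells with tamoxifen (limma adjusted p = 0.00348). ZDHHC21, on the other side of NFIB, differed by -0.09 ± 0.07 and -0.23 ± 0.08 and did not pass in either. None of CELF5 and SMIM24 beside NFIC and DAND5 and LYL1 beside NFIX passed (lowest adjusted p in limma 0.0718). The 3 probe sets of NFIA-AS2, named as an antisense RNA of NFIA, lay at the floor on every array (1.52 to 2.07).

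Partners and regulators of NFI proteins were counted from a list of 11 genes, of which 10 were measured. This list and the lists of targets below were chosen with earlier results of these data known, so their knockdown calls are a description. In SRC1-siRNA cells 1 fell and 0 rose in untreated cells, and again 1 and 0 with tamoxifen, beside 5.36% lower and 4.99% higher of all probe sets without and 7.70% and 5.76% with tamoxifen, so that 1 of 10 is near the background. It was POU3F2, a neural transcription factor reported to act upstream of NFIB in melanoma cells, at -0.66 ± 0.12 (limma adjusted p = 0.00504) and -1.15 ± 0.15 (limma adjusted p = 0.00107). SOX9, which switches on NFIA in the developing spinal cord of mice, differed by 0.71 ± 0.24 and 0.55 ± 0.30 and did not pass. The estrogen receptor ESR1 differed by -0.10 ± 0.05 in untreated and by -0.03 ± 0.06 in tamoxifen-treated cells. FOXA1 differed by -0.03 ± 0.07 and -0.23 ± 0.08 in the same order. Neither gene passed the threshold in either comparison. The list medians were -0.05 and -0.14, against 0.00 and -0.02 over all probe sets to 2 decimals.

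Targets of NFI proteins reported in the nervous system were 13 genes, 12 of them measured and 4 above the median signal. In SRC1-siRNA cells 3 rose and 0 fell in untreated cells (4.99% and 5.36% of all probe sets), and 3 and 0 with tamoxifen (5.76% and 7.70%). APCDD1, a Wnt inhibitor that NFIA and SOX9 activate in mouse and chick glial precursors, rose by 0.83 ± 0.14 (limma adjusted p = 0.00277) and 0.56 ± 0.17 (limma adjusted p = 0.0472). The second of these calls was lost in 15 of 22 alternatives, with limma adjusted p from 0.0203 to 0.467, and without SRC1-siRNA tamoxifen replicate 1 the difference was 0.26. The glutamate transporter SLC1A3 rose by 0.63 ± 0.16 and 0.77 ± 0.19. Its call in untreated cells was lost without SRC1-siRNA replicate 1 or 3 or control-siRNA replicate 1, and with tamoxifen without either SRC1-siRNA array (limma adjusted p up to 0.082 and 0.177 over the alternatives). The third gene was MMD2 in untreated cells (0.19 ± 0.05) and the fatty acid binding protein FABP7 in treated cells (0.59 ± 0.08), both below the median signal. The MMD2 call was lost in 8 of 21 alternatives (limma adjusted p from 0.0247 to 0.144), the FABP7 call in 0 of 21. The list median was 0.01 in both comparisons.

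Targets reported in other tissues were 12 genes, all measured and 6 above the median signal. In SRC1-siRNA cells 2 rose and 1 fell in untreated cells (4.99% and 5.36% of all probe sets), and 2 and 0 with tamoxifen (5.76% and 7.70%). KLF4, a transcription factor that NFIC activates in breast cancer cells, rose by 1.13 ± 0.23 with tamoxifen (limma adjusted p = 0.00784), as in untreated cells (1.05 ± 0.19). The cell cycle inhibitor CDKN1A rose by 0.24 ± 0.06 and 0.33 ± 0.07. With tamoxifen, both calls were lost without SRC1-siRNA tamoxifen replicate 1 (limma adjusted p = 0.114 for KLF4 and 0.102 for CDKN1A). The CDKN1A call in untreated cells was lost without SRC1-siRNA replicate 2 or 3 or control-siRNA replicate 4 (limma adjusted p up to 0.0591). E-cadherin, CDH1, fell by 0.27 ± 0.06 in untreated cells (limma adjusted p = 0.00864) and differed by -0.15 ± 0.07 with tamoxifen (limma adjusted p = 0.170). FOXF1 differed by 0.57 ± 0.22 and 0.58 ± 0.27 and did not pass. List medians were 0.05 and 0.04. For tamoxifen in either siRNA, 0 members of the 3 lists passed in limma. Of all probe sets, 0.163% passed in control-siRNA cells and 1.51% in SRC1-siRNA cells, so 0 is near the background. At an unadjusted p under 0.05 there were 1, 4 and 0 members for partners, neural targets and other targets in control-siRNA cells, beside 15.7% of all probe sets, and 1, 2 and 0 in SRC1-siRNA cells, beside 16.8%.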

How the data were processed

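RNA of LY2 cells was hybridised to 14 Affymetrix HG-U133 Plus 2.0 arrays. The deposited values are log2 signals per probe set, made by the authors; R 2.9.2 is named in the submitters' processing notes, while the way they were normalized is not given in the sources used here. The log2 base was inferred from the range (0.912 to 15.5). Leaving out 62 control probe sets left 54613 of 54675, of which 41091 carried 1 gene symbol, 1801 several and 11721 none. Groups came from the sample titles. The 4 group means were fitted to all arrays with limma 3.58.1 (statmod 1.5.0, R 4.3.3; lmFit, eBayes; two-sided; Benjamini-Hochberg adjustment over all probe sets, threshold 0.05), code that was also tested on simulated data. Precision is limited by the number of arrays. Nothing says that replicates were separate cultures beyond the word biological, so p-values measure the spread between these arrays. A gene on a list is represented by its brightest probe set. All NFIA probe sets and the brightest of each other member are given array by array, with the 5 most similar genes and up to 4 list members of smallest p per comparison. Some list genes are not reported here. Members and lists were chosen with earlier results of these data known. Promoter sequences are from RefSeq.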

Additional observations from a re-analysis of the deposited data

Results flagged for a closer look

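Of 84 groups of 4 arrays examined for the NFI and NCOA1 probe sets, 5 held an array far from the other 3, and chance flags about 1 in 20 groups. NFIA 224975_at was high in control-siRNA tamoxifen replicate 2 (9.43, with the next array at 9.21). NFIC 226895_at was low in control-siRNA untreated replicate 1 (9.18, with the next at 9.50), and NFIC 206929_s_at was high on the same array (5.68, with the next at 5.59). NFIX 209807_s_at was high in SRC1-siRNA untreated replicate 1 (4.15, next 3.97) and NFIB 233394_at was low there (2.12, next 2.27).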

How the results depend on the processing

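The alternatives were a filter on dim signals, quantile normalization, centring on medians, the replicate block, a fit to the compared groups alone, trended and robust eBayes, array weights and the omission of each array. Omitting all arrays of replicate number 4 was added after seeing the data. Under each of these, 0 NFI members passed for either tamoxifen comparison or the interaction. There were thus no such calls for the block to remove. Over all probe sets the block took tamoxifen calls from 89 to 1 in control-siRNA cells and from 824 to 0 in SRC1-siRNA cells. Those of the interaction went from 153 to 0. The count for the knockdown in untreated cells, 11, ran from 9 to 12 without 1 array, was 8 with the replicate block (over all probe sets 5653 became 2154) and 11 without replicate number 4. With tamoxifen the knockdown count of 8 ran from 4 to 9 without 1 array, was 5 with the replicate block (over all probe sets 7350 became 1224) and 9 without replicate number 4. It was lowest, at 4, without SRC1-siRNA tamoxifen replicate 1. The cause was not tested. Deviations of same-numbered arrays had negative correlations (18 values from -0.585 to -0.0421, median -0.334), and the F statistic of the number had a median of 0.0428 over all probe sets, where 0.871 is its null value, and of 0.127 over NFI probe sets. Replicate numbers thus differed less than independent arrays would. Whether differences between numbers were removed before deposit is not given in the labels and was not tested. Had they been, negative correlations would follow, a shared batch could not be seen this way, and standard errors and adjusted p without the block would be too small. Of single differences, 11 for the knockdown moved by more than the spread between replicates and 1043 did not, 21 for tamoxifen or the interaction moved and 1536 did not, and 0 called differences changed sign. The mean over all probe sets of a gene was also taken in place of the brightest. In untreated and tamoxifen-treated cells NFIA then differed by -0.63 and -0.58 and NFIB by -0.28 and -0.19. NFIC differed by 0.13 in both, against -0.05 and 0.28 for its brightest probe set. NFIX differed by 0.03 and 0.17, against -0.01 and 0.42 for its brightest probe set. Among other genes, the replicate block ended the calls of CDH1 (adjusted p = 0.0588 in limma), MPDZ (0.0523), SLC1A3 (0.082 and 0.108), MMD2 (0.144) and PECAM1 (0.0862), and with tamoxifen those of APCDD1 (0.188), KLF4 (0.0585) and CDKN1A (0.0548). The PECAM1 call was also lost without SRC1-siRNA untreated replicate 1 or 2 or control-siRNA untreated replicate 3 or 4. For tamoxifen in SRC1-siRNA cells the block left 0 calls over all probe sets, so the CDH5 call there was lost too. Block results for KRT8 are not reported here. POU3F2 kept its call in all 22 alternatives of both knockdown comparisons. Of the 24 probe sets, 5 lay below the median signal of all probe sets. Low signals limit what these and the other dim probe sets can show.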
